A study of Mus musculus with 40 samples.

Results

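The dystrophin glycoprotein complex was followed in EDL (extensor digitorum longus), a hindlimb muscle made almost wholly of fast fibers, through 8 genes: Dmd, Utrn, Dtna, Dag1, Sgca, Sgcb, Sgcd and Sspn. They were taken by gene symbol from tables of 22844 genes, in which each symbol matched a single row, and all 8 were detected well enough to be tested. The tables came from mRNA sequencing of 40 muscles, 1 library per mouse, in 8 groups of 5. In TSCmKO mice the muscle fibers are deprived of Tsc1, which normally restrains mTORC1, a kinase complex that drives growth, and the controls (CON) were littermates labelled Tsc1fl/fl that carry the floxed alleles without Cre recombinase. All animals carry the strain label Tsc1tm1Djk/J, and the promoter that drives Cre is not given in the sources used here. Mice were 3 or 9 months old and were injected intraperitoneally with vehicle (3mCON, 3mTSCmKO, 9mCON, 9mTSCmKO) or with the mTORC1 inhibitor rapamycin (3mCON+RM, 3mTSCmKO+RM, 9mCON+RM, 9mTSCmKO+RM) for 3 days before dissection. The labels give 4 mg per kg of rapamycin and the study text a higher daily dose, so that the dose is uncertain.

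The complex links the actin cytoskeleton of a muscle fiber to the basal lamina around it and protects the membrane from the strain of contraction. Dystrophin binds actin on the inside and dystroglycan at the membrane, dystroglycan binds laminin on the outside through long sugar chains, and the sarcoglycans and sarcospan form a subcomplex in the membrane that holds this axis together. Loss of single components causes muscular dystrophies (Duchenne dystrophy for dystrophin, limb-girdle forms for the sarcoglycans), and utrophin, a close relative of dystrophin concentrated at the neuromuscular junction, can take its place in part.

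The Tsc1 deletion separated the genotypes: Tsc1 was at 17.8 to 35.8 CPM (counts scaled to the size of each library, with TMM factors between libraries) in the 20 TSCmKO libraries and at 51.3 to 134 CPM in the 20 CON libraries. Total counts ran from 8883870 to 35224669 per library. Fast-fiber markers summed to at least 97209 CPM in every library and slow-fiber markers to at most 1470 CPM, which accords with the labelled muscle. Libraries of 9 months differed from those of 3 months in labelled insert size as well as in age, with inserts of 223 to 308 nt against 175 to 239 nt. 4 libraries stood apart in a way that bears directly on Dmd and Utrn. A long-transcript index was computed for each library, as the median log2 deviation of 577 genes whose longest transcript exceeds 8000 nt minus that of 1180 genes of at most 1500 nt. It was -0.87 to -1.20 in 9mCON replicate 2, 9mCON+RM replicate 1, 9mTSCmKO replicate 3 and 9mTSCmKO+RM replicate 1, against -0.48 to 0.43 in the other 16 libraries of 9 months and -0.023 to 0.39 in the 20 of 3 months. The longest transcript of Dmd has 14910 nt and that of Utrn 12382 nt, while Sgca, the shortest member, has 1724 nt. Dmd was at 80.4 to 136 CPM and Utrn at 31.9 to 39.5 CPM in those 4 libraries, whereas Sgca was at 123 to 246 CPM there and was the highest value of its group in each. Since each of the 4 groups of 9 months holds 1 such library, results were also obtained without them and with the index as a term of the model. Among the other libraries the median index was -0.32 in 9mTSCmKO, lower than in 9mCON (-0.047), 9mCON+RM (0.047) and 9mTSCmKO+RM (-0.020). At 9 months the share of long transcripts therefore cannot be fully told apart from the genotype, nor from rapamycin within TSCmKO.

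**Figure D1:**
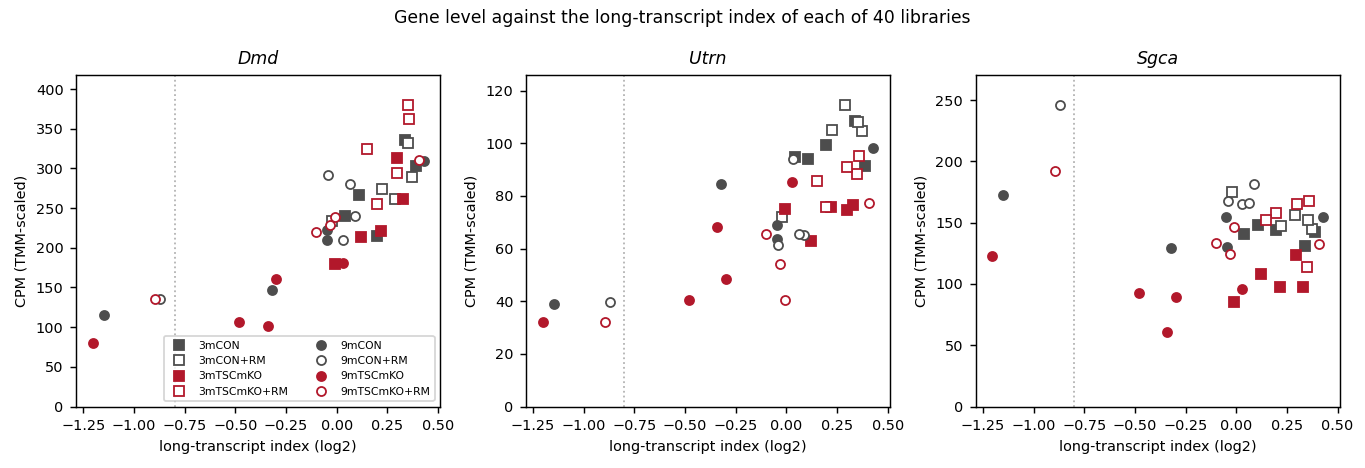
TMM-scaled CPM (y axis) of Dmd, Utrn and Sgca in each of the 40 libraries against the long-transcript index of the library (x axis, log2), with squares for 3 months, circles for 9 months, red for TSCmKO, grey for CON and open symbols for rapamycin. The 4 libraries left of the dotted line hold 80.4 to 136 CPM of Dmd, while Sgca reaches 246 CPM there.

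Sequence before the transcription start is shown for the 3 members that passed the test with rapamycin in 9mTSCmKO, so that the regions can be read beside their values. RefSeq starts (GRCm38.p6) were found for 7 of the members, with 10 starts in all. The 250 bases before each start were searched on the strand of the gene for the E-box CANNTG, a palindromic frame bound by myogenic basic helix-loop-helix factors among others and therefore the same on either strand, and for the CArG box, which serum response factor binds. An E-box lay before 7 of the 10 starts and in 66.2% of all 32851 windows of this length in the table, and a CArG box lay before 1 start and in 1.47% of all windows. The E-boxes are in capitals below, all sequences run 5′ to 3′ on the strand of the gene, and the base after the last one printed is the transcription start.
Sgca, chr11:94976328-94976577, minus strand: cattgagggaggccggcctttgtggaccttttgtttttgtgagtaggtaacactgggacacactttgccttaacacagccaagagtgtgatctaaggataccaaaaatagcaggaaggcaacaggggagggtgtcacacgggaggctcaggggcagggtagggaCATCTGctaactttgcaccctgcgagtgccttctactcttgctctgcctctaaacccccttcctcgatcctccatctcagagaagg
Dmd, chrX:82948620-82948869, plus strand: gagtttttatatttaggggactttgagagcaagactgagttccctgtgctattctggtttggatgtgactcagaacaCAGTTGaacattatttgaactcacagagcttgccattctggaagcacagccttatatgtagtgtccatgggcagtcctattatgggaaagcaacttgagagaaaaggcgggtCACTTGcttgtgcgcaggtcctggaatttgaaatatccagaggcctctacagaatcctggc
Sgcd, chr11:47379326-47379575, minus strand: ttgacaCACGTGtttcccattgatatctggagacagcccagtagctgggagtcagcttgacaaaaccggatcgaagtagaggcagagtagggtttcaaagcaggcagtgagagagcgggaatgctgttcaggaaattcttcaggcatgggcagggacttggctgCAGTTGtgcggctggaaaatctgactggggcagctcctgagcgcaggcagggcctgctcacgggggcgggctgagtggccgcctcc
Sgca had 1 E-box, which begins 86 bases before the start. Dmd had 2, beginning 173 and 61 bases before the start at the upstream end of the gene, with the CArG box beginning 98 bases before it. The window before a second RefSeq start of Dmd, at 85048295, held neither motif and is not shown. Sgcd had 2, beginning 244 and 86 bases before a start that lies inside the annotated gene. These matches describe letters in a window and do not show that a factor binds there.

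Levels between genes were compared in TPM, a unit scaled by transcript length. In 3mCON, Sgca (α-sarcoglycan, the sarcoglycan particular to striated muscle) led with 198 ± 11.2 TPM (SD, n = 5), followed by Dag1 (dystroglycan) with 124 ± 9.87 TPM and Dtna (α-dystrobrevin, a dystrophin relative that carries syntrophins) with 116 ± 11.3 TPM. Sgcb (β-sarcoglycan) and Dmd (dystrophin) lay next at 88.6 ± 7.88 and 87.6 ± 14.7 TPM. Sspn (sarcospan, a membrane protein that binds the sarcoglycans), Sgcd (δ-sarcoglycan, the partner of β-sarcoglycan in the core of the subcomplex) and Utrn (utrophin) were lowest, at 49.4 ± 3.45, 45.8 ± 13.7 and 33.9 ± 2.89 TPM. In this order the library values of Dag1 and Dtna, of Sgcb and Dmd, of Sspn and Sgcd, and of Sgcd and Utrn overlapped, while Sgca stood clear of Dag1, Dtna of Sgcb, and Dmd of Sspn. Sgca was the most abundant member in 7 of the 8 groups by mean. In 3mTSCmKO it fell behind Dag1, with 143 ± 15.3 against 157 ± 18.8 TPM, and their values overlapped. The TPM ratio of Sgca to Sgcb, 2 subunits of the same subcomplex, was 2.26 ± 0.322 in 3mCON and 2.32 ± 0.388 in 9mCON. It was 1.94 ± 0.334 in 3mTSCmKO and 1.60 ± 0.378 in 9mTSCmKO, and 2.90 ± 0.261 and 3.00 ± 0.536 in the same genotype with rapamycin. In CON with rapamycin it was 2.51 ± 0.228 at 3 months and 2.78 ± 0.486 at 9 months. The ratio lay between 1.07 and 1.99 in 9mTSCmKO and between 2.37 and 3.78 in 9mTSCmKO+RM, so that these groups did not overlap. The highest ratios in 9mTSCmKO+RM (3.78) and in 9mCON+RM (3.35) came from replicate 1 of each group, a library low in long transcripts.

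**Figure D2:**
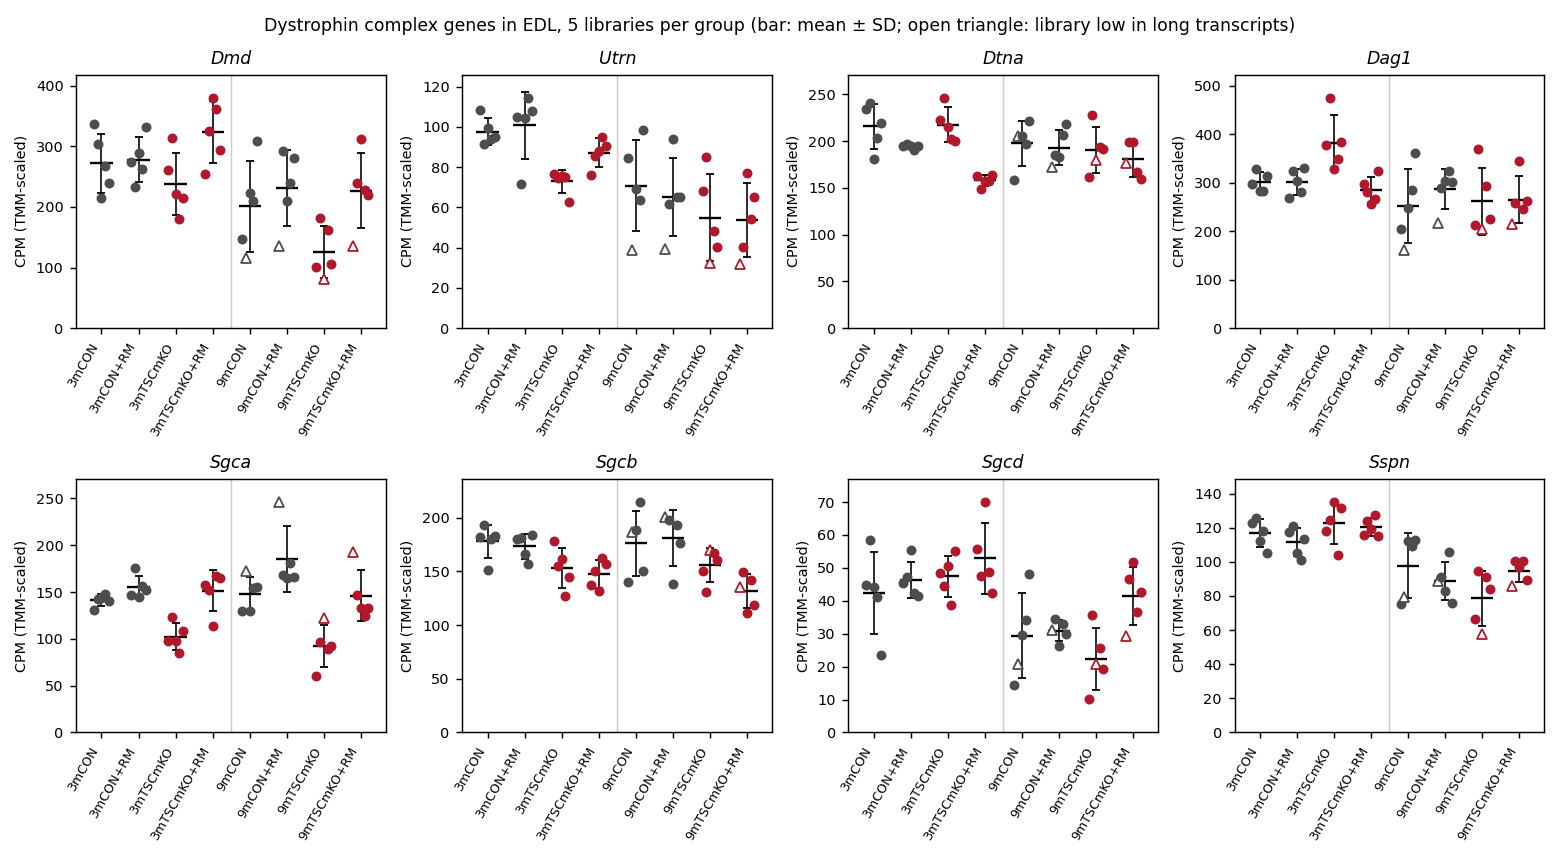
TMM-scaled CPM (y axis) of the 8 genes in each of the 40 libraries by group (x axis), with TSCmKO in red and CON in grey, the mean ± SD of 5 libraries in black, and open triangles for the 4 libraries low in long transcripts. Sgca lies lower in TSCmKO than in CON under vehicle at both ages, and reaches 114 to 168 CPM in 3mTSCmKO+RM and 124 to 193 CPM in 9mTSCmKO+RM.

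The comparison of 9mTSCmKO with 9mCON asked how sustained mTORC1 activity changes the complex in muscle with an overt phenotype. Transcripts of 3 members were lower and of none higher: Sgca, Dmd and Sspn. Their falls ranged from 0.31 to 0.68 on the log2 scale, and the 8 members had a median log2 fold change of -0.34, against -0.022 for all genes tested. Of all 13543 genes, 18.9% were lower and 19.1% higher in this contrast (edgeR quasi-likelihood test, adjusted p under 0.05), so that 3 of 8 lower members stand beside a background of about 1 gene in 5. Changes in a whole muscle cannot tell fewer cells of a type from less RNA per cell.

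Dmd (chromosome X, 82948870 to 85206141 of GRCm38, plus strand) was at 147, 115, 223, 209.7 and 309 CPM in 9mCON and at 102, 181, 80.4, 161 and 106 CPM in 9mTSCmKO. The groups overlapped, since the lowest 9mCON values lay within the 9mTSCmKO range. The log2 fold change was -0.67 (SE 0.227, adjusted p = 0.0182). It was -0.68 (adjusted p = 0.00709) without the 4 libraries low in long transcripts and -0.42 (SE 0.116, adjusted p = 0.00347) with the index as a term. The call was lost without 9mCON replicate 5 (-0.44, adjusted p = 0.136), 9mTSCmKO replicate 1 (-0.59, adjusted p = 0.057) or 9mTSCmKO replicate 3 (-0.53, adjusted p = 0.0737), and in a fit of only the groups compared (-0.66, adjusted p = 0.109) and under limma on log2(TPM + 1) (-0.60, adjusted p = 0.0803).

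The cytoskeletal relatives of dystrophin did not pass the test. Utrn (chromosome 10, 12382188 to 12869365, minus strand) was at 84.6, 38.8, 69.0, 63.6 and 98.3 CPM in 9mCON and at 68.0, 85.3, 32.3, 48.2 and 40.4 CPM in 9mTSCmKO. Both groups spread widely and overlapped, and the change of -0.37 (SE 0.222, adjusted p = 0.187) did not pass. Without 9mTSCmKO replicate 2 it was -0.59 (adjusted p = 0.0347) and passed. Dtna (chromosome 18, 23415135 to 23659715, plus strand) was at 197 ± 23.8 CPM in 9mCON and 191 ± 24.5 CPM in 9mTSCmKO (-0.049, SE 0.0973, adjusted p = 0.725). The matrix receptor Dag1 (chromosome 9, 108204634 to 108263958, minus strand), whose precursor protein is cut into the extracellular and the transmembrane part of dystroglycan, was at 252 ± 76.7 and 261 ± 69.5 CPM (0.054, SE 0.158, adjusted p = 0.819).

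Among the sarcoglycans, Sgca (chromosome 11, 94962791 to 94976327, minus strand) was at 129, 172, 130.2, 154 and 155 CPM in 9mCON and at 60.8, 96.2, 123, 89.2 and 92.6 CPM in 9mTSCmKO. Every 9mTSCmKO library lay below every 9mCON library. The log2 fold change was -0.68 (SE 0.139, adjusted p = 0.000156), and it was -0.77 (adjusted p = 1.96e-06) with the index as a term. In all 10 fits that left out 1 library of the contrast the call held. Sgcb (chromosome 5, 73632749 to 73647790, minus strand) was at 176 ± 30.4 and 156 ± 15.8 CPM (-0.18, SE 0.114, adjusted p = 0.215). Sgcd (chromosome 11, 46896253 to 47988969, minus strand) was at 14.5 to 48.1 CPM in 9mCON and 10.2 to 35.8 CPM in 9mTSCmKO (-0.40, SE 0.242, adjusted p = 0.192). It passed only without 9mCON replicate 1 (-0.57, adjusted p = 0.0495) or 9mTSCmKO replicate 2 (-0.64, adjusted p = 0.0369).

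Sspn (chromosome 6, 145931641 to 145965223, plus strand) was at 75.3, 79.2, 112, 109 and 113 CPM in 9mCON and at 66.4, 94.5, 57.5, 91.0 and 84.1 CPM in 9mTSCmKO, with overlapping values. The log2 fold change of -0.31 (SE 0.118, adjusted p = 0.0325) did not hold in every alternative. The call was lost without any 1 of 9mCON replicates 3, 4 and 5 and 9mTSCmKO replicates 1 and 3 (-0.27 to -0.21), without the 4 libraries low in long transcripts (-0.27, adjusted p = 0.0636), in a fit of only the groups compared (-0.30, adjusted p = 0.264) and under limma on log2(TPM + 1) (-0.23, adjusted p = 0.228).

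Markers of fiber type and of other cells moved with the same contrast. Of 8 fast-fiber markers 4 were lower, and their summed level was 97209 to 113238 CPM in 9mTSCmKO against 148029 to 158748 CPM in 9mCON. All 4 slow-fiber markers were higher, with sums of 523 to 1470 against 61.1 to 109 CPM. Markers of fibroblasts (4 of 6), tendon (4 of 5), endothelium (3 of 6), smooth muscle and pericytes (2 of 5), Schwann cells (2 of 6) and adipocytes (2 of 4) were lower in part, with sums of 298 to 893 against 839 to 1577 CPM for fibroblasts and 13.6 to 45.1 against 43.2 to 359 CPM for tendon. Of 8 macrophage markers 1 was higher, and of 3 immature-fiber markers 2 were higher and 1 lower, with sums of 1231 to 2569 against 2086 to 3723 CPM. Their part in the changes of the complex was not tested.

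**Figure D3:**
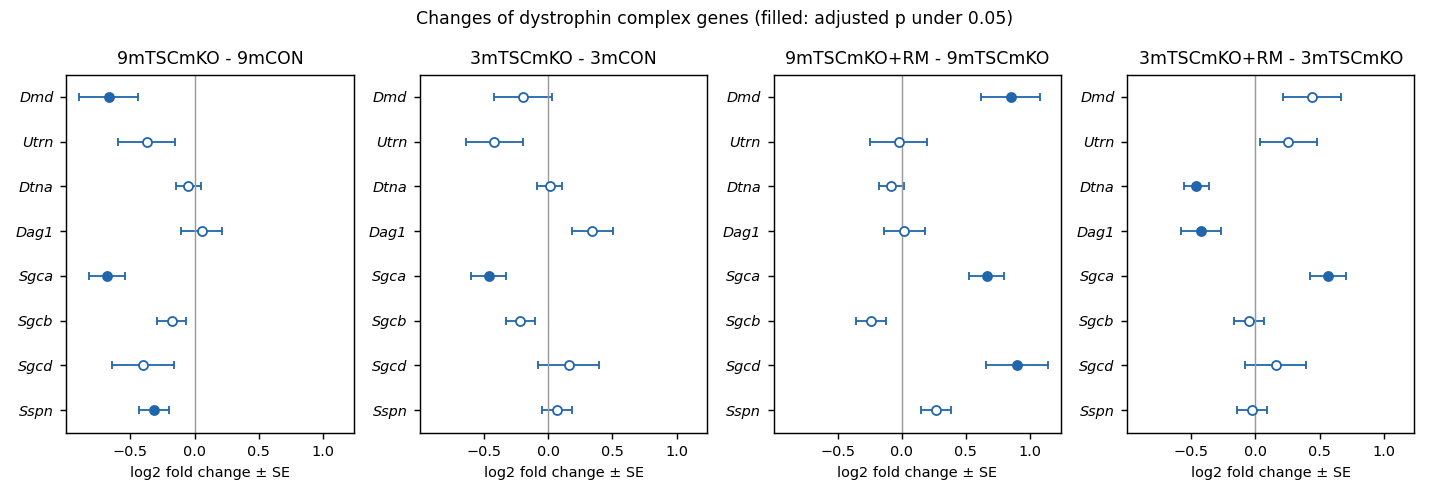
Log2 fold change ± SE (x axis) of the 8 genes (y axis) in 4 comparisons, from the edgeR fit of all 40 libraries, with filled points for adjusted p under 0.05. Sgca is filled in all 4 panels, to the left of 0 for genotype and to the right of 0 for rapamycin, while Dmd is filled at 9 months only.

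At 3 months the same contrast asked what precedes that phenotype, and Sgca was the single member that passed. Its values were 131, 142, 144, 148 and 141 CPM in 3mCON and 97.7, 124, 97.2, 85.2 and 108 CPM in 3mTSCmKO. These groups did not overlap, and the log2 fold change was -0.46 (SE 0.139, adjusted p = 0.0141). It was -0.47 (adjusted p = 0.0023) with the index as a term, and the call held in each fit that left out 1 library. The count of 1 lower member stands beside 8.32% of all genes lower and 11.4% higher, and the median log2 fold change of the members was -0.091 against -0.024 for all genes. Alongside, 1 of 4 slow-fiber markers (sums of 145 to 540.4 against 56.0 to 289 CPM) and 1 of 3 immature-fiber markers were higher, and 1 of 5 tendon and 1 of 5 smooth muscle and pericyte markers were lower. Their part in the fall of Sgca was not tested.

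Utrn and Dag1 did not pass at 3 months, and moved across the threshold under some alternatives. Utrn was at 108, 91.4, 99.3, 94.0 and 94.9 CPM in 3mCON and at 76.6, 74.5, 75.9, 75.1 and 62.8 CPM in 3mTSCmKO. All 5 TSCmKO libraries lay below all 5 CON libraries, but edgeR estimates 1 spread over the 8 groups, and the change of -0.42 (SE 0.221) had an adjusted p of 0.188. It passed with the index as a term (-0.40, adjusted p = 0.019) and in a fit of only the groups compared (-0.41, adjusted p = 0.00248). Dag1 was at 298, 329, 283, 282 and 313 CPM in 3mCON and at 377, 475, 327, 348 and 383 CPM in 3mTSCmKO, with 1 TSCmKO value inside the CON range. Its log2 fold change of 0.34 (SE 0.158, adjusted p = 0.127) passed with the index as a term (0.35, adjusted p = 0.00823) and in the fit of only the groups compared (0.35, adjusted p = 0.0251). The other 5 members had log2 fold changes from -0.22 (Sgcb) to 0.16 (Sgcd) with adjusted p of 0.186 or more.

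An interaction term asked whether deletion acted differently at the 2 ages, and it was one that 3.01% of all genes passed upward and 1.93% downward. No member passed with edgeR, DESeq2 or limma on log2(TPM + 1), and 1 did at an unadjusted p under 0.05: Sspn, with -0.38 (SE 0.166, adjusted p = 0.185). For Dmd the interaction was -0.48 (SE 0.319, adjusted p = 0.427) and for Sgca -0.22 (SE 0.196, adjusted p = 0.57), so that a difference between the ages was not shown for either.

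Rapamycin for 3 days in 9mTSCmKO asked which of these levels respond to short mTORC1 inhibition. Sgca, Dmd and Sgcd rose, by 0.66 to 0.90 on the log2 scale, and no member fell. Of all genes 15.8% rose and 16.8% fell, and the median log2 fold change was 0.14 for the members and -0.045 for all genes. This contrast shares the 9mTSCmKO libraries with the genotype contrast of that age, so that a low value in those libraries enters both. Their lower long-transcript index enters both as well, so that rapamycin and the share of long transcripts cannot be fully told apart here.

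Sgca was at 193, 147, 133, 124 and 133 CPM in 9mTSCmKO+RM, where each value lay above all 9mTSCmKO values (60.8 to 123 CPM), if narrowly. The log2 fold change was 0.66 (SE 0.139, adjusted p = 0.000345), and 0.77 with the index as a term. Dmd reached 136, 239, 311, 229 and 220.4 CPM, and all but replicate 1, a library low in long transcripts, lay above the highest 9mTSCmKO value of 181 CPM. Its log2 fold change was 0.85 (SE 0.227, adjusted p = 0.00393), 0.86 (adjusted p = 0.00116) without the 4 libraries and 0.53 (SE 0.118, adjusted p = 0.000555) with the index as a term. Sgcd was at 29.2, 46.6, 51.9, 36.7 and 42.8 CPM after 10.2, 35.8, 20.8, 25.7 and 19.2 CPM under vehicle, with overlap through 1 treated and 1 vehicle library. Its log2 fold change was 0.90 (SE 0.242, adjusted p = 0.00425), and 0.70 (adjusted p = 0.0127) with the index as a term.

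The remaining 5 members did not pass in 9mTSCmKO. Sspn was at 94.6 ± 6.56 CPM with rapamycin (0.27, SE 0.118, adjusted p = 0.0798), Sgcb at 132 ± 16.0 CPM (-0.24, SE 0.114, adjusted p = 0.101), Dtna at 180.3 ± 18.4 CPM (-0.082), Dag1 at 265 ± 47.9 CPM (0.020) and Utrn at 53.8 ± 18.3 CPM (-0.025, SE 0.222, adjusted p = 0.947). Sspn (0.32, adjusted p = 0.0406) and Sgcb (-0.32, adjusted p = 0.035) passed in opposite directions without 9mTSCmKO replicate 2. Fast-fiber markers moved alongside, with 4 of 8 higher and 1 lower and a summed level of 139667 to 171627 CPM, as did 2 of 8 macrophage markers, which were lower with sums of 38.9 to 56.2 CPM against 51.7 to 98.4 CPM. Immature-fiber markers (1 of 3 higher, 2 lower) moved too, as did 1 slow-fiber and 1 Schwann marker, which were lower, 1 endothelial marker in each direction, and 1 smooth muscle and 1 satellite cell marker, which were higher. Their part in the rises was not tested.

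In 3mTSCmKO rapamycin raised Sgca and lowered Dtna and Dag1. The vehicle libraries of 3mTSCmKO also serve the genotype contrast at 3 months, so that a low or high value in them enters both. Sgca rose to 158, 152, 114, 168 and 165 CPM, of which only replicate 3 fell within the vehicle range (0.56, SE 0.139, adjusted p = 0.00228). Dtna was at 222, 246, 215, 202 and 200.01 CPM under vehicle and at 163, 148, 157, 157 and 164 CPM with rapamycin. These groups were widely separate and the log2 fold change was -0.46 (SE 0.0974, adjusted p = 0.00046). It passed in every alternative except limma on log2(TPM + 1) with no filter (-0.36, adjusted p = 0.0604). Dag1 fell from the vehicle values given above to 297, 281, 256, 267 and 323 CPM, below every vehicle library, but its log2 fold change of -0.42 (SE 0.158, adjusted p = 0.0466) lay at the threshold. It lost the call in 8 of 10 fits without 1 library (-0.33 and adjusted p = 0.153 without 3mTSCmKO replicate 2), and passed more clearly with the index as a term (-0.47, adjusted p = 0.00054). Dmd was at 255 to 380.3 CPM with rapamycin against 179 to 313 CPM (0.44, SE 0.226, adjusted p = 0.158) and passed with the index as a term (0.38, adjusted p = 0.0104). Against these counts of 1 higher and 2 lower members, 10.6% of all genes were higher and 13.0% lower. In the same contrast 3 of 8 fast-fiber markers were higher and 1 lower (sums of 148032 to 179713 against 97427 to 168045 CPM), 2 of 3 immature-fiber markers were higher and 1 lower, 2 of 8 macrophage markers, 1 of 6 fibroblast and 1 of 5 tendon markers were higher, and 1 of 4 slow-fiber markers was lower. Their part in these changes was not tested.

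Rapamycin in CON asked whether these levels respond without the deletion. At 9 months 5.03% of all genes rose and 6.82% fell, and no member passed with edgeR, DESeq2 or limma on log2(TPM + 1). At an unadjusted p under 0.05 there was 1, Sgca, which was at 246, 168, 165, 181 and 166 CPM in 9mCON+RM (0.32, SE 0.139, adjusted p = 0.135). It passed with the index as a term (0.33, adjusted p = 0.0444) but not without the 4 libraries (0.27, adjusted p = 0.158). In this contrast 7 of 8 macrophage, 6 of 6 fibroblast, 4 of 5 tendon and 1 of 6 Schwann markers were lower and 1 of 8 fast-fiber markers was higher, with fibroblast sums of 129 to 601 CPM in 9mCON+RM against 839 to 1577 CPM in 9mCON. At 3 months 0.362% of all genes rose and 0.318% fell, no member passed with any of these tools, and 0 did at an unadjusted p under 0.05. The log2 fold changes ran from -0.15 (Dtna) to 0.13 (Sgca), with SE of 0.0973 to 0.238.

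The interaction of rapamycin with genotype tested whether TSCmKO and CON responded differently. At 9 months it passed upward for 2.56% and downward for 2.31% of all genes, and at 3 months for 1.36% and 2.09%. No member passed at either age with edgeR on all 40 libraries, DESeq2 or limma on log2(TPM + 1), and 2 did at each age at an unadjusted p under 0.05. At 9 months these were Sgcd (0.83, SE 0.341, adjusted p = 0.154) and Sspn (0.40, SE 0.166, adjusted p = 0.151). At 3 months they were Sgca (0.43, SE 0.196, adjusted p = 0.279) and Dtna (-0.31, SE 0.138, adjusted p = 0.259). Dmd had 0.64 (SE 0.319, adjusted p = 0.248) at 9 months. Dag1 had -0.43 (SE 0.224, adjusted p = 0.376) at 3 months, and passed in a fit of only the groups compared (-0.43, adjusted p = 0.0464) but not with the index as a term (-0.45, adjusted p = 0.0517).

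Between genotypes under rapamycin, 1 member differed at each age. At 9 months Sgcb was lower in 9mTSCmKO+RM, at 136, 149.9, 112, 142 and 119 CPM, than in 9mCON+RM, at 200.4, 198, 138, 194 and 176 CPM, where 1 low CON library caused the overlap. The log2 fold change was -0.46 (SE 0.114, adjusted p = 0.00275), and 9.33% of all genes were lower and 11.3% higher in that contrast. Sgca had -0.35 (SE 0.139, adjusted p = 0.0729), and passed without the 4 libraries (-0.34, adjusted p = 0.0428) and with the index as a term (-0.34, adjusted p = 0.0276). Dmd was at 231 ± 63.1 and 227 ± 62.4 CPM in these groups (-0.028, SE 0.225, adjusted p = 0.956). At 3 months Dtna was lower in 3mTSCmKO+RM than in 3mCON+RM (195, 197, 195, 190.1 and 194 CPM), with no overlap. Its log2 fold change of -0.30 (SE 0.0974, adjusted p = 0.0418) lost the call in each of the 10 fits without 1 library (adjusted p of 0.0551 to 0.101) and was -0.11 (adjusted p = 0.725) under limma on log2(TPM + 1). There 4.36% of all genes were lower and 5.67% higher. Under rapamycin at 9 months 4 of 4 slow-fiber (373 to 683 against 76.8 to 232 CPM in sum), 2 of 3 immature-fiber and 1 of 8 macrophage markers were higher in TSCmKO, and 2 of 8 fast-fiber and 2 of 6 endothelial markers were lower. At 3 months 1 of 4 slow-fiber, 2 of 3 immature-fiber and 1 of 5 tendon markers were higher. Their part in the differences of Sgcb and Dtna was not tested.

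Age comparisons asked how each genotype changes from 3 to 9 months. They are confounded with insert size and the long-transcript index of the libraries, which both differ with age. In CON 0.679% of all genes rose and 0.34% fell, and no member passed with edgeR, DESeq2 or limma on log2(TPM + 1). At an unadjusted p under 0.05 there were 3, all lower at 9 months: Utrn (-0.46), Sgcd (-0.53) and Sspn (-0.26). Sgcd alone passed without 9mCON replicate 5 (-0.78, adjusted p = 0.0428). In TSCmKO, where 19.1% of all genes rose and 18.3% fell, 4 members were lower at 9 months: Sgcd, Dmd, Sspn and Dag1. Sgcd went from 48.3, 44.6, 50.7, 38.6 and 55.0 CPM in 3mTSCmKO to the 10.2 to 35.8 CPM given above, with no overlap (-1.09, SE 0.242, adjusted p = 0.000638). Sspn went from 118, 124, 135, 104 and 131 CPM to 57.5 to 94.5 CPM, also without overlap (-0.64, SE 0.118, adjusted p = 6.57e-05). Dmd (-0.91, SE 0.227, adjusted p = 0.00191) and Dag1 (-0.55, SE 0.159, adjusted p = 0.00639) overlapped between ages and did not pass with the index as a term, at -0.33 (adjusted p = 0.0504) and -0.20 (adjusted p = 0.195). With insert size as a term, Sgcd (-0.81, adjusted p = 0.104) and Dag1 (-0.62, adjusted p = 0.0654) did not pass. Markers of fibroblasts (4 of 6), endothelium (4 of 6), adipocytes (4 of 4), tendon (4 of 5, with 1 higher), blood (3 of 4), fast fibers (3 of 8) and smooth muscle (1 of 5) were lower with age in TSCmKO. Slow-fiber (3 of 4), immature-fiber (2 of 3) and Schwann (1 of 6) markers were higher, and 1 of 8 macrophage markers moved in each direction. Their part in these falls was not tested.

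The tables also gave the ratio of the counts of a gene to its TPM, which follows the length assigned to its transcripts and so moves with the choice of transcripts and with settings of the whole library. Sgcb, for which 1 coding transcript is annotated, and Sspn had nearly equal log2 differences in this ratio, for example both 0.021 for rapamycin in 9mTSCmKO, so that small differences are not read as a choice of transcripts. Across 10292 genes with at least 20 counts in every library, limma called 1.21% in the genotype contrast at 9 months, 0.175% in that at 3 months, 1.56% for rapamycin in 9mTSCmKO and 0.0972% for rapamycin in 3mTSCmKO. No member passed in any of these 4 contrasts, and at an unadjusted p under 0.05 there were 1, 1, 0 and 1. Dtna had the lowest p, with a log2 difference of -0.075 (SE 0.0215, adjusted p = 0.293) in 3mTSCmKO against 3mCON. For Sgca the log2 difference was -0.00031 (SE 0.0109) at 9 months, and no shift in assigned length was detected. Its 5 annotated coding transcripts share most of their sequence, so that the ratio says little about a choice between them.

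Other components and binding partners of the complex were followed in a list of 22 genes, of which 19 could be tested. In 9mTSCmKO 1 was higher and 4 were lower than in 9mCON, with a median log2 fold change of -0.20, beside 19.1% of all genes higher and 18.9% lower, so that the share of partners that fell is near that of all genes. Sync (syncoilin, an intermediate filament protein that binds α-dystrobrevin) rose from 32.2 ± 8.57 to 59.8 ± 14.4 CPM (0.89, SE 0.161, adjusted p = 2.75e-05), without overlap. Krt19 (keratin 19, which binds dystrophin) had -1.23 (adjusted p = 0.0215) at the low level of 1.24 ± 0.309 and 0.540 ± 0.447 CPM and lost the call without 9mTSCmKO replicate 1, 4 or 5. Sntb1 (β1-syntrophin, an adaptor bound by dystrophin) had -0.65 (adjusted p = 0.0496), and lost the call in 7 of the 10 fits without 1 library. Nos1, the neuronal nitric oxide synthase that the complex holds at the membrane, averaged 39.98 CPM in 9mTSCmKO against 70.6 CPM (-0.82, adjusted p = 0.0729) and did not pass.

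At 3 months 1 partner was higher and 2 were lower, with a list median of -0.16, beside 11.4% and 8.32% of all genes. Sync was the one that rose, from 33.9 ± 3.37 to 53.2 ± 7.79 CPM (0.65, adjusted p = 0.00281), and its values did not overlap between genotypes.

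Rapamycin raised 4 partners and lowered none in 9mTSCmKO, beside 15.8% of all genes higher and 16.8% lower, and raised 4 and lowered 1 in 3mTSCmKO, beside 10.6% and 13.0%. In 9mCON it raised 2 and lowered 2, beside 5.03% and 6.82% of all genes, and in 3mCON it changed 0. Itga7 (integrin α7, the other laminin receptor of muscle fibers) rose from 85.8 ± 22.2 to 156 ± 17.0 CPM at 9 months (0.86, SE 0.161, adjusted p = 7.26e-05) and from 72.0 ± 19.6 to 158 ± 30.9 CPM at 3 months (1.13, SE 0.162, adjusted p = 1.41e-06). It did not overlap at either age. In CON, Itga7 was at 79.9 ± 15.1 CPM under vehicle and 116 ± 8.10 CPM with rapamycin at 9 months, and at 77.9 ± 8.78 and 110.3 ± 11.2 CPM at 3 months, also without overlap. Plec (plectin, a cytolinker that joins dystrophin to desmin filaments) rose from 565 ± 194 to 1014 ± 307 CPM at 9 months (0.84, adjusted p = 0.00847). Its values overlapped there, at 333 to 847 CPM in 9mTSCmKO and 638 to 1491 CPM in 9mTSCmKO+RM. At 3 months it rose from 717 ± 181 to 1188 ± 155 CPM (0.73, adjusted p = 0.0291). The 3-month rise of Plec lost its call in 5 of 10 fits without 1 library. Sync fell to 35.4 ± 2.44 CPM at 3 months (-0.59, adjusted p = 0.00545), where groups did not overlap, and was at 51.4 ± 9.41 CPM at 9 months without passing. Synm (synemin, an intermediate filament protein) rose at 9 months from an average of 1032 to 1436 CPM (0.48, adjusted p = 0.0334). The list medians were 0.070 at 9 months and 0.24 at 3 months.

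The enzymes that build the laminin-binding sugar of dystroglycan formed a list of 18, of which 17 were in the table and 16 could be tested. In 9mTSCmKO 3 were lower and 1 higher than in 9mCON, beside 18.9% and 19.1% of all genes, and at 3 months 2 were lower and none higher, beside 8.32% and 11.4%. The share that fell at 9 months is near that of all genes. B3galnt2, which extends the core sugar, fell from 115 ± 18.2 to 83.2 ± 15.1 CPM at 9 months (-0.47, adjusted p = 0.00135). At 3 months it fell from 126 ± 12.1 to 91.0 ± 5.71 CPM (-0.48, adjusted p = 0.00214), without overlap between genotypes.

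Rapamycin raised 6 of the 16 in 9mTSCmKO, beside 15.8% of all genes, and 1 in 3mTSCmKO, beside 10.6%, and lowered none. Tmem5 (also Rxylt1, a xylosyltransferase of the chain) rose from 32.4 ± 4.41 to 47.9 ± 3.57 CPM at 9 months (0.56, adjusted p = 0.000724) and from 32.9 ± 3.95 to 44.0 ± 3.46 CPM at 3 months (0.42, adjusted p = 0.0127), without overlap at either age. Pomt1, which adds the first mannose of the chain together with Pomt2, rose from 10.6 ± 1.75 to 14.3 ± 1.24 CPM at 9 months (0.43, adjusted p = 0.00361). Pomt2 (0.40, adjusted p = 0.0159) and B4gat1 (0.33, adjusted p = 0.0108), which primes the laminin-binding repeat, also rose at 9 months. The list medians were -0.20 and -0.11 for genotype at 9 and 3 months, and 0.19 and 0.082 for rapamycin.

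The genes whose group means most resembled each member were found among 6993 other genes with at least 5 CPM and a span of at least 0.5 on the log2 scale, by Pearson r over the 8 group means, which share their libraries. Dmd was most like Neb (r = 0.992) and Pomt2 (r = 0.989), Utrn like Il17rd (r = 0.993) and Daam2 (r = 0.989), Dtna like Zbtb18 (r = 0.984) and 9330159F19Rik (r = 0.950), and Dag1 like Rere (r = 0.988) and Kdm7a (r = 0.976). Sgca was most like Zfp445 (r = 0.987) and Adsl (r = 0.986), Sgcb like Sugp2 (r = 0.972) and Galnt17 (r = 0.971), Sgcd like Usp9x (r = 0.986) and Cep350 (r = 0.983), and Sspn like Arhgap21 (r = 0.983) and Fryl (r = 0.981). The longest transcript exceeded 5000 nt in 12 of these 16 genes and in 24.8% of the genes searched.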

How the data were processed

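mRNA from 40 whole EDL muscles was sequenced as single-end directional libraries. Per the labels and the study's methods, the authors trimmed reads with cutadapt 1.9.1 and aligned them with kallisto 0.43.1 to mouse transcripts (GRCm38). They then computed counts and TPM from these alignments in a step of their own. The estimated counts per gene were deposited by the authors as whole numbers, so that rounding left them unchanged, and the TPM values were deposited by the authors in a second table. A read that fits several transcripts was shared equally among them, so that transcript choice and length enter both units.

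From these tables, groups were taken from the labels. The estimated counts were fitted with edgeR 4.0.16 (R 4.3.3; TMM, robust quasi-likelihood test, 8 group means over 40 libraries) for 13543 genes with at least 1 CPM in at least 5 libraries, and p-values were adjusted by Benjamini-Hochberg over all of them, with a threshold of 0.05. Every adjusted p is from this test unless limma or an alternative fit is named beside it, and it is then from the fit named. Counts per TPM were tested with limma 3.58.1 on 10292 genes. Alternatives were upper-quartile scaling, no filter, DESeq2 1.42.0, only the groups compared, insert size as a term (39 libraries, since 1 label gives none), limma on log2(TPM + 1) or log2(TPM + 0.1), a replicate block, and leaving out each library. The long-transcript index (transcript lengths from GENCODE M21) as a term and the omission of 4 libraries were added after seeing the data. Total counts of 8883870 to 35224669 gave at least 196 counts to each member in every library. The code was tested on simulated data.

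The members and lists were chosen with earlier results of these data known. From the partner and glycosylation lists the rule names, in each of the 4 genotype and TSCmKO rapamycin comparisons, the 3 genes with the largest rise and the 3 with the largest fall among those past the threshold. Nos1, Synm, B4gat1 and Pomt2 were named after their values were seen, and some genes of these lists that the rule names are not reported here. Samples with the same replicate number were not treated as pairs.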

Additional observations from a re-analysis of the deposited data

Results flagged for a closer look

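In each of the 64 sets of 5 libraries (8 genes in 8 groups), the lowest or highest value was compared with the others by Dixon's criterion for 1 extreme sample, which chance alone meets in about 1 of 20 groups, and 4 sets met it. Utrn was at 71.9 CPM in 3mCON+RM replicate 2, below the 105 to 115 CPM of the other 4 libraries. It was at 62.8 CPM in 3mTSCmKO replicate 5, against 74.5 to 76.6 CPM. Sgca was at 114 CPM in 3mTSCmKO+RM replicate 3, against 152 to 168 CPM, and at 246 CPM in 9mCON+RM replicate 1, against 165 to 181 CPM. That last library is among the 4 low in long transcripts, and without those 4 the rise of Sgca with rapamycin in 9mCON was 0.27 (adjusted p = 0.158) in place of 0.32 (adjusted p = 0.135). The part of library composition in these values was not tested.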

How the results depend on the processing

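No direction of a called change reversed under any alternative. At 9 months 3 members were called for genotype, and 1 in a fit of only the groups compared and under each of 3 limma fits on TPM (pseudocounts 1 and 0.1, and no filter). At 3 months 1 was called for genotype, and 3 with the long-transcript index as a term or with only the groups compared. Rapamycin in 3mTSCmKO gave 3, against 5 with only the groups compared and 1 under limma with no filter. Rapamycin in 9mCON gave 0, and 1 with the index, and the interaction with genotype at 3 months gave 0, and 1 (Dag1) with only the groups compared. Genotype under rapamycin at 9 months gave 1, and 2 with the index or without the 4 libraries low in long transcripts. At 3 months it gave 1, and 0 with no filter and under the 3 limma fits. Age in TSCmKO gave 4, and 2 with insert size as a term, and counts per TPM for rapamycin in 9mTSCmKO gave 0, and 2 (Sgcb and Sspn, with nearly equal differences) with insert size. The cause of these changes was not tested.

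Leaving out 1 library gave 1 (without 9mCON replicate 5, 9mTSCmKO replicate 1 or 9mTSCmKO replicate 3) to 5 (without 9mTSCmKO replicate 2, with Utrn at -0.59 and Sgcd at -0.64 added) members for genotype at 9 months, and 3 to 5 for rapamycin in 9mTSCmKO (5 without 9mTSCmKO replicate 2). It gave 1 to 2 for genotype under rapamycin at 9 months (2 without 9mTSCmKO+RM replicate 1), 0 in all 10 fits at 3 months, 0 to 1 for age in CON (1 without 9mCON replicate 5) and 4 to 6 for age in TSCmKO (6 without 9mTSCmKO replicate 2). The replicate block left the count of members called as in the fit without it in all 13 comparisons, for example 3 for genotype at 9 months. Of 50 pairs with the same number 13 correlated above 0.1 (r from -0.34 to 0.38), and 14 were best with their own number, so that the numbers were not taken to pair the samples. Sgcd had the lowest counts of the members, with 196 to 1529 per library.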
